A study of Zea mays with 4 samples.

Results

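Sites of pseudouridine (Ψ) with a cytosine directly before and directly after the modified base (CΨC) were examined in the coding sequences of maize shoot mRNA. A site was taken if it lay in a coding sequence, if its gene had no other listed site, and if the base before and the base after it were both C. These conditions gave 90 sites, each in a different gene, out of 388 listed sites in 362 genes. They are called CΨC coding sites here. The other 177 single-site coding sites, which have other neighbouring bases, serve as the comparison.

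The RNA came from shoots of week-old plants of the maize inbred line B73, grown in a greenhouse and not treated further. Poly(A)-enriched RNA was made into 4 libraries by bisulfite-induced deletion sequencing (BID-seq), of which 2 were treated with bisulfite and 2 were input controls that were not. The replicates were summed in the values used here. Each site therefore has 1 value, and no spread between replicates is known.

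Ψ is an isomer of uridine in which the base is joined to the sugar through a carbon atom. It is made after transcription by pseudouridine synthases, some of which are guided by small RNAs while others recognise their target alone. Ψ still pairs with adenosine, and it is abundant in rRNA and tRNA. BID-seq uses a bisulfite adduct on Ψ that makes reverse transcriptase jump over the base, so that the read carries a gap. Where the neighbours are both C, as here, a missing base can be placed at only one position in the alignment.

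For each site the list gives the depth (reads covering the site), the gap ratio (the share of those reads with a gap) and the Ψ fraction. To obtain the fraction, the authors translated the gap ratio into a stoichiometry with a fitted calibration curve. A window of 21 bases is listed with every site, in which the site is base 11. Windows are shown 5′ to 3′ as deposited, in DNA letters. Bases 9 to 14 are in capitals, so that the third capital is the Ψ and the capital C on either side of it is what the selection used.

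Most windows had a G before the first C. The following windows are of the most frequent type, GCΨCUG, and come from genes whose function is known. The bases farther out differ from gene to gene.
pdk1: ccagggcaGCTCTGgtggctg
GAPC1: ccgggatcGCTCTGaacgacc
tua4: tcgatggtGCTCTGaacgttg
vpp1: tgccattgGCTCTGcagcctt
rps4: tcaagtatGCTCTGaactacc
cdpk14: gtcatggaGCTCTGcgccggc

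The next windows are of the second type, GCΨCGG, in which a G takes the place of the U. In these the sequence before and after the capitals was more alike, with a c before and an a after them.
CAT3: gccgactcGCTCGGacaccca
PHD35: tggcgatcGCTCGGaccggcg
LOC100191531: gtgcagtcGCTCGGactgcgc
LOC100281862: ctgtattcGCTCGGatttgac
LOC100273455: gtctgatcGCTCGGaccctct
LOC100275443: ccaccatcGCTCGGatctgcg

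The last windows show less frequent types, with another base before the first C or another base at the end.
tub5: tctcacagCCTCTGccatgtt
LOC100283648: ccatcctaCCTCTGgctattg
LOC100282413: gtgaagaaTCTCTGaaagaag
GST3: agatcccgGCTCTCgtcgacg
LOC542394: aacgaggtGCTCCGcctcgtc
LOC100193556: cgtggataTCTCACccctgag

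The outer bases were the feature the 90 sites had most in common beyond the selection. Base 9 was G at 70 of 90 sites, or 77.8% (Wilson 95% interval 68.2 to 85.1%), against 92 of the 177 other coding sites, or 52.0% (44.7 to 59.2%). Base 13 was U at 65 sites, or 72.2% (62.2 to 80.4%), against 11.3% (7.43 to 16.8%) of the other sites. Base 14 was G at 71 sites, or 78.9% (69.4 to 86.0%), against 29.4% (23.2 to 36.5%). The intervals of CΨC sites and other sites did not overlap at any of these bases. These and all later intervals cover counting error only, because sites of one list are not replicates and reads after amplification are not independent molecules.

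The contexts among the other coding sites were each lower at these bases, to differing degrees. With G before and G after the Ψ (58 sites), base 14 was G at 29.3% and base 13 was U at 5.17%. With U before and C after (42 sites), the shares were 35.7% and 11.9%. With U before and G after (37 sites), they were 13.5% and 24.3%. In the less common contexts (40 sites), they were 37.5% and 7.50%. The second base before the Ψ was G at 55.2%, 42.9% and 40.5% of the sites in the first 3 contexts. In the less common contexts it was G at 27 of 40 sites, or 67.5% (52.0 to 79.9%), an interval that overlaps that of the CΨC sites.

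Farther from the site the shares were less uneven but not flat. Outside bases 9 to 14, no base reached more than 43.3% at any position of the CΨC windows, a value that C had at its highest. The share of U outside these bases ran from 4.44% to 36.7%, and that of G from 14.4% to 37.8%. The intervals of CΨC and other coding sites were apart for 5 of 60 combinations of position and base there. U was more frequent at base 4 (36.7% against 18.1%) and base 7 (33.3% against 12.99%), A at base 6 (27.8% against 13.6%) and base 15 (27.8% against 10.2%), and G was less frequent at base 16 (17.8% against 43.5%).

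**Figure D1:**
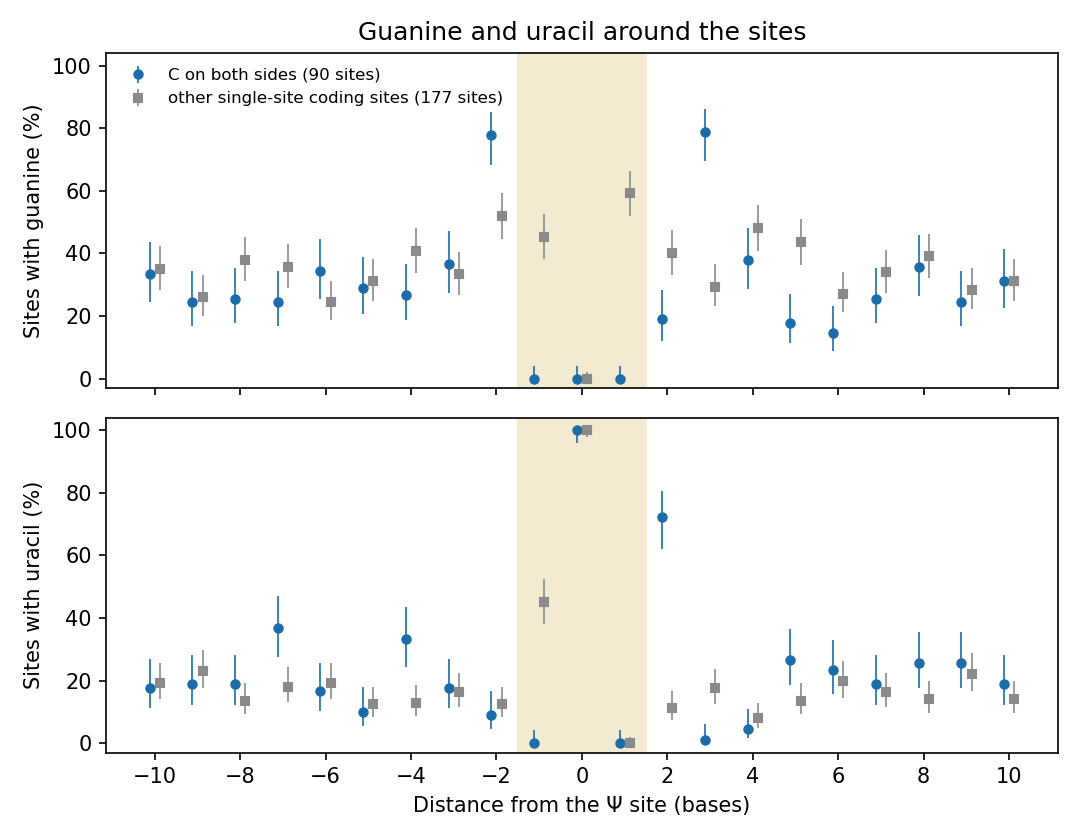
Share of sites with guanine (top) and uracil (bottom) at each position from 10 bases before to 10 bases after the Ψ, for the 90 sites with C on both sides (circles) and the 177 other single-site coding sites (squares). Bars are Wilson 95% intervals, and the shaded bases are those the selection used. Guanine reaches 77.8% at the second base before and 78.9% at the third base after the site, and uracil 72.2% at the second base after it.

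Together these bases formed a short list of hexamers over bases 9 to 14. GCΨCUG was found at 40 sites, or 44.4% (34.6 to 54.7%), and GCΨCGG at 13 sites, or 14.4% (8.64 to 23.2%). GCΨCUC had 9 sites, CCΨCUG 8 and UCΨCUG 5. G stood at both ends of the hexamer at 56 sites, or 62.2%. A adjoined the first C at only 1 site, in LOC100383323.

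The letters GCTCTG were searched in all 388 windows, on the listed strand and at any place in the window. Among the 298 windows that are not CΨC coding sites they occurred in 16, or 5.37% (3.33 to 8.54%). Searching the opposite strand as well gave 18 windows, or 6.04%, and no further CΨC window. Of the 126 CΨC sites in the list, 21 lay in coding sequences of genes with more than 1 site and 15 outside coding sequences. GCΨCUG was found at 9 of the former, or 42.9% (24.5 to 63.5%), and at 6 of the latter, or 40.0% (19.8 to 64.3%). Both kinds are among the 298 windows, so most of the 16 windows carried the hexamer at a CΨC site. The 5.37% is therefore not a rate for windows without such a site. The shares at the 3 kinds of place lay inside each other's intervals.

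The bases beside the hexamer depended on its type. Of the 13 GCΨCGG sites, 11 had C at base 8 and 10 had A at base 15, with 9 sites carrying both. Among the 9 are LOC100194135 and LOC103646782, which have the same window and are counted separately here. Of the 40 GCΨCUG sites, 5 had C at base 8, 10 had A at base 15, and 2 carried both. In the latter type G was the most frequent base at either place, with 20 and 15 sites. The letters CGCTCGGA were found in 9 windows of CΨC coding sites and in 3 of the other 298 windows, which include the remaining CΨC sites of the list.

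A further CUC triplet was present in 28 of the 90 windows, so the triplet alone does not mark a listed site. To describe unlisted triplets, the windows of single-site coding sites that equal their transcript window (248 windows) were read for CUC at other places. The triplet itself had to be clear of the listed site and its neighbours, but the bases read beside it did not. This gave 34 triplets. A G came before 10 of them, or 29.4% (16.8 to 46.2%), and U followed 4 of them, or 11.8% (4.67 to 26.6%). Neither GCUCUG nor GCUCGG was found among them (0 of 34, with an upper Wilson limit of 10.2% each). The second base after a triplet can be the base directly before a listed site, which fixes in part what it can be. The base before a triplet and the first base after it are not direct neighbours of a listed site, but can lie near it. The shares and the absence of both hexamers cannot be read as those of free triplets. These neighbours are also few and were taken from beside other sites, so they are a limited picture of CUC in maize coding sequence.

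Depth differed widely between the 90 genes. It had a median of 620.5 reads and ran from 17 reads in LOC100286151 to 4689 in pdk1. There were 33 sites with at least 1000 reads and 9 with fewer than 100. The other coding sites had a median of 406 reads and ran from 6 to 7284. Depth depends on how much of a transcript the tissue holds, and in a whole shoot fewer cells with a transcript and less transcript per cell cannot be told apart.

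In all, 85660 reads covered the CΨC coding sites and 4917 of them were gapped. The number of gapped reads at a site had a median of 41 and ran from 6 to 239. The gap ratio had a median of 6.91%, with quartiles of 5.30% and 9.75% and a range from 3.51% to 35.3%. The Wilson interval of a gap ratio had a median width of 4.02 percentage points, with 1.26 at the deepest site and 41.4 at the shallowest. At 45 sites the interval held the median of 6.91%. It lay above the median at 20 sites and below it at 25.

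Gap ratio and depth were closely tied. Across the 90 sites their rank correlation was −0.89 (Spearman's rho, a description over sites of pooled libraries), and it was −0.90 over the 50 sites with G before and U after. The points share the depth, which is the denominator of the gap ratio. Sites also entered the list only after a P value-based filter of the authors, whose threshold at each depth is not given in the sources used here. What shallow positions with a low gap ratio would show is therefore unknown here.

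**Figure D2:**
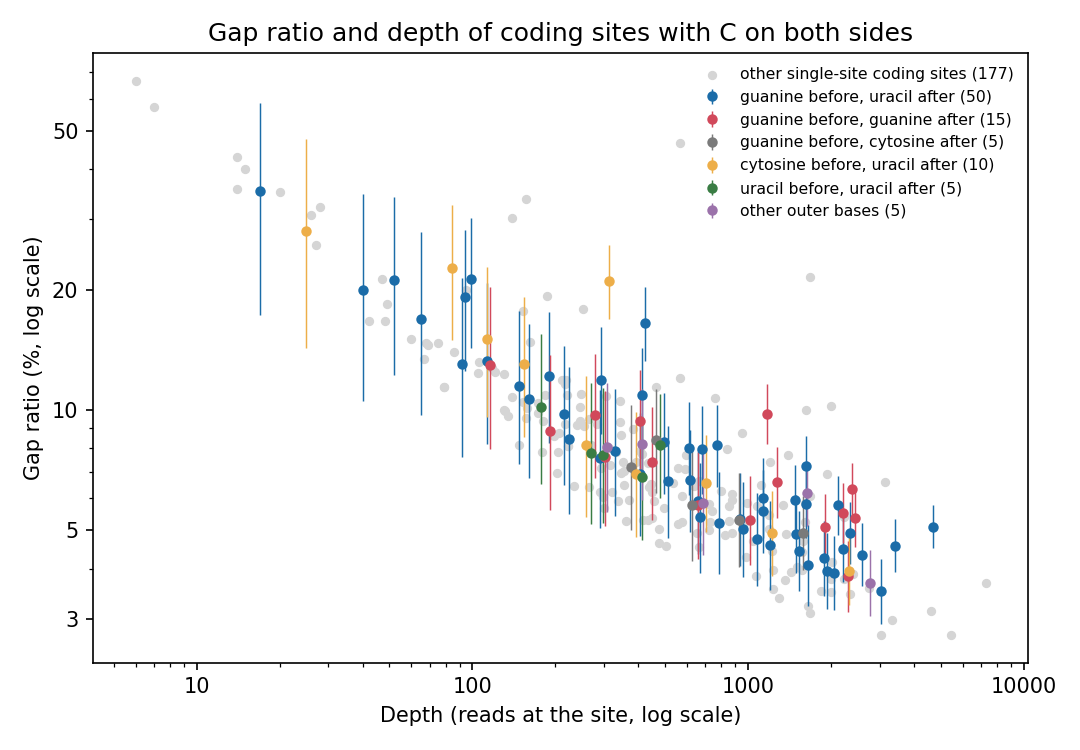
Gap ratio (per cent, log scale) against depth (reads, log scale) for the 90 coding sites with C on both sides, coloured by the bases outside the C residues, with Wilson 95% intervals, and for the 177 other single-site coding sites (grey, no intervals). The gap ratio runs from 35.3% at 17 reads to 3.51% at 3048 reads, and the coloured points lie in the same band as the grey ones.

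The extremes of the list illustrate this. The shallowest site, in LOC100286151 (chromosome 4, position 204198025), had 6 gapped reads of 17, a gap ratio of 35.3% (17.3 to 58.7%). The deepest site, in pdk1 (chromosome 6, position 157085887), had 239 gapped reads of 4689, or 5.10% (4.50 to 5.76%). The lowest gap ratio was that of LOC100274305 (chromosome 3, position 158250722), with 107 gapped reads of 3048, or 3.51% (2.91 to 4.22%). The interval of LOC100286151 overlaps neither of the others, and those of pdk1 and LOC100274305 do not overlap each other.

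A few sites stood above others of their depth. In LOC100193012 (chromosome 5, position 212657218) 66 of 314 reads were gapped, or 21.02% (16.9 to 25.9%), and in LOC100277035 (chromosome 10, position 58114629) 70 of 424, or 16.5% (13.3 to 20.3%). Among the 36 CΨC coding sites with 200 to under 800 reads the median was 7.84%. In LOC100191531 (chromosome 1, position 199014718) 114 of 1167 reads were gapped, or 9.77% (8.19 to 11.6%), while the 15 sites with 800 to under 1600 reads had a median of 5.29%. All 3 intervals lay above the median of the depth class.

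The Ψ fraction of the 90 sites had a median of 24.1% and ran from 10.5% to 69.8%. It was under 20% at 34 sites, or 37.8% (28.5 to 48.1%), from 20 to 50% at 52 sites, and over 50% at 4 sites, or 4.44% (1.74 to 10.9%). The other coding sites had a median of 26.4%, with 31.1% under 20% and 14.1% (9.75 to 20.0%) over 50%. The difference of the medians was −2.33 percentage points, and that of the means −4.95. Neither was matched for depth. The 95% intervals of the medians, from order statistics, were 20.4 to 26.4% and 24.0 to 28.7% and overlap. No test between the groups was made, since sites are not replicates.

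The 90 sites were spread over all 10 chromosomes, with 4 to 15 sites each, and 44 of them lay on the plus strand. A pass score of 2 was listed at 23 sites, or 25.6% (17.7 to 35.4%), and at 28.8% of the other coding sites, and the meaning of the score is not given in the sources used here.

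The order of the contexts was not the same for gap ratio and fraction. The median gap ratio of CΨC coding sites (6.91%) lay below those with G on both sides (7.54%), with U before and C after (7.06%) and with U before and G after (8.65%), and above that of the less common contexts (6.66%). By the median fraction, the sites with G on both sides were lowest (19.0%), followed by CΨC (24.1%), U before and G after (26.6%), the less common contexts (30.4%) and U before and C after (30.999%).

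Split by depth, the median gap ratios of CΨC and other coding sites lay close together. With under 200 reads the median gap ratio was 14.2% in both groups (18 and 46 sites). At 200 to under 800 reads it was 7.84% at 36 CΨC sites and 7.13% at 76 other sites. At 800 to under 1600 reads it was 5.29% against 4.93%, and at 1600 reads and over 4.57% (21 sites) against 3.77% (24 sites). In the same order of depth, the median fractions were 41.3% against 38.6%, 24.2% against 24.4%, 16.1% against 18.1% and 15.1% against 15.4%. The reads pooled over all sites of a group gave gap ratios of 5.74% and 5.92%. All 4 CΨC sites with a fraction over 50% had fewer than 200 reads, and none of the 72 deeper sites reached it. Among the other coding sites, 17 of 46 with under 200 reads were over 50%. In the deeper classes of these sites, in order of depth, it was 7 of 76, 0 of 31 and 1 of 24.

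Within CΨC, classes of outer bases with like gap ratios had unlike fractions. The 50 sites with G before and U after had a median gap ratio of 6.64% and a median fraction of 20.3%. The 15 sites with G before and G after had nearly the same gap ratio, 6.59%, and a median fraction of 30.8%. The 10 sites with C before and U after had a median of 10.6% for the gap ratio and 25.7% for the fraction. In these classes the fraction was a median of 3.04, 4.68 and 2.46 times the gap ratio.

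The same was seen at matched gap ratios. Between 5% and 6%, the 10 sites with G before and U after had fractions of 15.5% to 18.3%, and the 5 sites with G before and G after had fractions of 25.2% to 27.8%. The ranges do not overlap. At like gap ratios the deposited fractions thus differed between these classes. Over all depths the fraction was 1.98 to 3.08 times the gap ratio in the former class and 3.80 to 5.18 times in the latter. One rising curve of the gap ratio alone does not return both sets of fractions. How the calibration treated sequence context is not described in the sources used here.

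The same step is present at high depth. Because the fraction is calculated from the gap ratio, this repeats the result above and adds no separate support. At 800 reads and over, the 22 sites with G before and U after had gap ratios of 3.51% to 7.22% with a median of 4.81%, and fractions of 10.5% to 21.99% with a median of 14.8%. The 8 sites with G before and G after had gap ratios of 3.82% to 9.77% with a median of 5.44%, and fractions of 19.8% to 41.0% with a median of 26.5%. The gap ratios of the classes overlap over most of their range, and the fractions only between 19.8% and 21.99%.

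**Figure D3:**
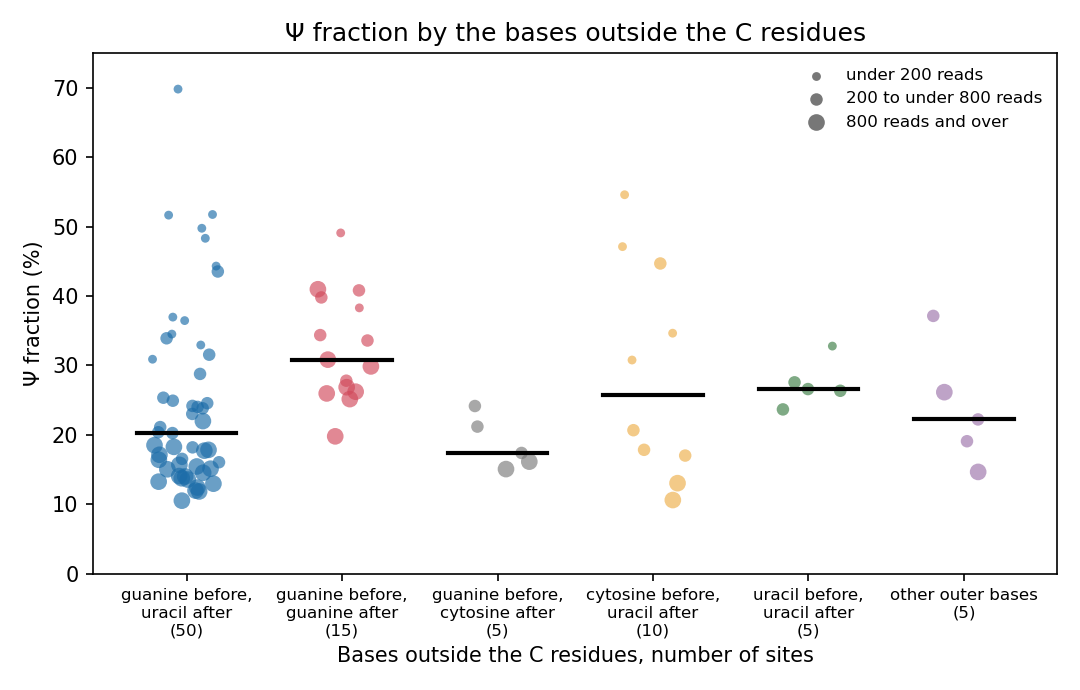
Ψ fraction (per cent) of the 90 coding sites with C on both sides, grouped by the base before the first C and the base after the second C. Each point is a site, larger points are deeper sites, and the black line is the median. The medians are 20.3% for guanine before and uracil after and 30.8% for guanine on both sides, although the median gap ratios are 6.64% and 6.59%.

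The highest fractions with at least 100 reads came mostly from GCΨCGG windows, a type with a larger step from gap ratio to fraction. PHD35, a gene named for a PHD finger (a fold that binds histone tails), had a fraction of 49.1% from 15 gapped reads of 116. LOC100193012, of the type CCΨCUG, had 44.7%, and LOC100277035, of the type GCΨCUG, had 43.5%. They were followed by LOC100191531 at 41.0%, LOC100286177 at 40.8% and LOC100281862 at 39.8%, all 3 with GCΨCGG. The interval of the gap ratio of PHD35 (8.00 to 20.2%) overlaps those of the other 5. The step from gap ratio to fraction differs between the types, so this overlap does not settle the order of the fractions. No interval of the fraction was computed, and the first place is not known to be firm.

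The lowest fractions were found at deep sites. LOC100274305 had 10.5%, LOC100283648 had 10.6% from 92 gapped reads of 2326, LOC541942 had 11.9% from 80 of 2048, and LOC103632242 had 11.98% from 76 of 1927. Their gap ratios lay between 3.51% and 3.96%, with intervals that overlap one another. Apart from pdk1 and LOC100274305, the deepest sites were in LOC100272927 (156 of 3416 reads gapped, fraction 14.01%), LOC100191573 (102 of 2770, 14.7%) and tua4 (112 of 2583, 13.3%).

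In the reading frame, the Ψ was spread almost evenly over the codon. It opened the codon at 24 sites, or 26.7% (18.6 to 36.6%), was the second base at 33, or 36.7% (27.4 to 47.0%), and the third at 33. At the other coding sites the shares were 13.6%, 59.9% and 26.6%. The second position held 67.2% of the sites with G on both sides and 78.6% of those with U before and C after, and the third position 64.9% of those with U before and G after. Among the 34 unlisted CUC triplets the middle U was the first base of a codon in 14, the second in 16 and the third in 4.

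**Figure D4:**
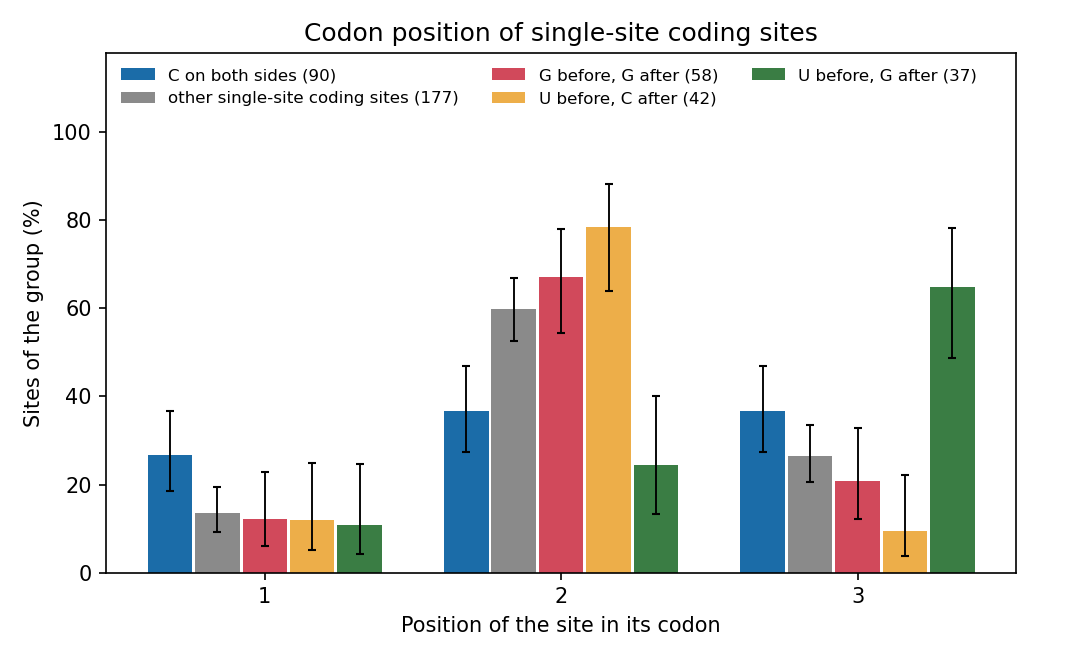
Share of sites (per cent) with the Ψ at each of the 3 positions of its codon, for the 90 coding sites with C on both sides, the 177 other single-site coding sites, and the 3 most frequent contexts among the latter. Bars start at 0 and error bars are Wilson 95% intervals. With C on both sides the shares are 26.7%, 36.7% and 36.7%, while the second position reaches 59.9% at the other sites.

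Because both neighbours are fixed, few codons are possible at each position. With the Ψ in the middle the codon was CΨC, for leucine. It was listed for leucine at 31 sites (median fraction 24.2%) and for a stop at 1. With the Ψ last, GCΨ for alanine was found at 26 sites (median fraction 24.4%), CCΨ for proline at 3 and UCΨ for serine at 2. With the Ψ first, the codon was ΨCU at 16 sites (median fraction 22.4%), ΨCG at 4, ΨCC at 2 and ΨCA at 1, all for serine. For the 86 sites whose codon fits the window, the listed amino acid was leucine at 31, alanine at 26 and serine at 25. It was proline at 3 and a stop at 1. The stop was listed in LOC100276357 for the codon CTC, which encodes leucine, so the listing goes against the codon there.

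Stoichiometry was much the same in the 3 frames. The median gap ratio was 7.58% at the first, 7.22% at the second and 5.80% at the third codon position, and the median fraction 24.6%, 24.2% and 23.8%. Depth moved the other way, with medians of 413.5, 659 and 938 reads, and its part in the gap ratios was not tested. GCΨCUG fell in all 3 frames. It read as GCΨ CUG at 19 sites, as GC ΨCU G at 12 and as G CΨC UG at 9. GCΨCGG was divided into 3, 5 and 5 sites over the first, the second and the third position. Of the 9 GCΨCUC sites, 6 had the Ψ in the middle of the codon and 3 at its end.

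Along the coding sequence the sites were found from base 6 to base 2478, with a median at base 629. The first 30 bases held 4 sites, bases 31 to 300 held 18, the bases after these up to base 900 held 44 and the remainder 24. In per cent these are 4.44, 20.0, 48.9 and 26.7, and the other coding sites had 2.82, 24.3, 46.3 and 26.6. Neither gap ratio nor fraction followed this position (rho −0.07 and −0.10, n = 90 sites). Counts of codons were made from the coding position here, because the listed amino acid number exceeded the counted one by 1 at 50 sites and by 2 at 1 site.

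Some sites lay next to the start codon. LOC100191874 and LOC100279975 had the Ψ at coding base 6, so that it ended the second codon in the order AUG GCΨ. Their windows show the start codon directly before the capitals.
LOC100191874: aaaggatgGCTCTCcggcgca
LOC100279975: cgataatgGCTCTGgtcgggc

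In LOC100191874, 11 of 52 reads carried a gap, which is 21.2% (12.2 to 34.03%), for a fraction of 51.6%. In LOC100279975, 34 of 514 did, which is 6.61% (4.77 to 9.10%), for a fraction of 20.3%. The intervals do not overlap. In LOC100273227 the Ψ opened the third codon (coding base 7, 34 of 414 reads gapped, fraction 22.2%), and in PHD35 it was coding base 12. The 4 sites of the first 30 bases had a median fraction of 35.7%, and 2 of them had fewer than 200 reads.

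Splice junctions were near a few sites only. Within 10 bases of a junction lay 6 sites, or 6.67% (3.09 to 13.8%), compared with 5.08% (2.70 to 9.38%) of the other coding sites. The median distance to the nearest junction was 85.5 bases, against 132 bases. In the list a positive distance counts from the start of the exon, as seen from where genome and transcript windows part.

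The closest sites were 1 or 2 bases past a junction. LOC100273287 (1 base) had 19 gapped reads of 225, or 8.44% (5.47 to 12.8%). At 2 bases, sut1 had 21 of 258, or 8.14% (5.39 to 12.1%), LOC103639536 had 20 of 154, or 12.99% (8.57 to 19.2%), and LOC100193012 had 66 of 314, or 21.02% (16.9 to 25.9%). LOC100282742 lay 6 bases past a junction (23 of 302 gapped, 7.62%) and LOC103632242 lay 8 bases before one (76 of 1927 gapped, 3.94%). The interval of LOC100193012 overlaps only that of LOC103639536 among these 6 sites. How reads were aligned across junctions was not tested.

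For sites this close to a junction, the genome window runs into the intron while the listed transcript window continues in the exon before. The windows of LOC100193012 show this, since they agree from the capitals onward and differ before them.
LOC100193012 genome: atttgcagCCTCTGaggccaa
LOC100193012 transcript: gcgacgagCCTCTGaggccaa

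Genome and transcript windows were equal at 80 sites and differed at 10. Taking the 80 alone, G at base 9 had 80.0% and GCΨCUG 45.0% of the sites. The listed codon went against the window at 4 sites, in sut1, LOC100277822, pip1-2 and LOC100191573. In sut1 and LOC100191573 the transcript window was shifted, and in LOC100277822 it held other sequence.

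In pip1-2 a single base differed, the modified one itself. With positions counted from 1 at the 5′ end of the genome window, the change from genome to transcript was T11C. The codon listed there, GCC for alanine, follows the transcript.
pip1-2 genome: ttggcgctGCTCTGgctgcca
pip1-2 transcript: ttggcgctGCCCTGgctgcca

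The site of pip1-2 had 67 gapped reads of 1644, or 4.08% (3.22 to 5.14%), and a fraction of 12.4%. A single change outside the capitals was listed for trxh2 (A20T). The genome and transcript windows of LOC103632242 also differ at 1 base (G20A), but that base lies past the junction near this site.

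Several windows were shared, or nearly so, between genes. Whether these genes are alike beyond the window, so that reads could have been divided between them, was not tested. LOC100194135 and LOC103646782, neighbours on chromosome 2 at positions 105444975 and 105495281, had the same window, acctgagcGCTCGGatggtgg. They had 131 gapped reads of 2445 (5.36%, 4.53 to 6.32%) and 122 of 2209 (5.52%, 4.65 to 6.55%). LOC100280585 on chromosome 6 and LOC100216946 on chromosome 8 shared cgctactgGCTCTGcgctgcg, with 41 gapped reads of 786 (5.22%) and 36 of 670 (5.37%). Within each pair the coding position was also the same, base 225 in the former and base 794 in the latter.

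A further pair differed at 1 base of the window. LOC100277035 and LOC103653035 had 70 of 424 and 45 of 413 reads gapped, or 16.5% (13.3 to 20.3%) and 10.9% (8.24 to 14.3%), which overlap. In sut1 and LOC103639536 the windows shared a run of 15 bases around the site, with the same listed distance from the junction. The same codon position was also listed, but that of sut1 comes from the shifted transcript window and does not hold for the site shown. Their intervals also overlap. Counting each window once left 88 sites and a median fraction of 24.1%.

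Of the 90 genes, 17 were picked by a name in the gene table, after the values had been seen. Other genes also have a name there, such as ppp1 for LOC100272927 (3416 reads) and Natterin-4 for LOC100194135 (2445 reads), and were not picked. The sites of the 17 were deeper, with a median of 1586 reads against 478 at the other 73. Their median gap ratio was lower, 5.57% against 7.59%. Both comparisons hold for the picked names only. GCΨCUG was found in 11 of the 17 and in 29 of the 73.

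Among genes of transport, the gap ratio ran from 4.08% to 8.14% and the fraction from 12.4% to 20.7%. They were sut1, a sucrose transporter that loads the phloem, pip1-2, an aquaporin of the plasma membrane, vpp1, a proton-pumping pyrophosphatase of the vacuole, and pOMT1, a plastid carrier for oxoglutarate and malate. In vpp1, 99 of 2206 reads were gapped, or 4.49% (3.70 to 5.43%), with the Ψ opening a serine codon 15 bases past a junction. In pOMT1, 63 of 1132 were gapped, or 5.57% (4.37 to 7.06%). The intervals of pip1-2, vpp1 and pOMT1 overlap one another, and sut1, the shallowest of the 4, lay above pip1-2.

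The genes of carbon metabolism had well-covered sites. pdk1 (chromosome 6, 157076348 to 157086887) encodes pyruvate, orthophosphate dikinase, which regenerates the primary CO2 acceptor of C4 photosynthesis. Its Ψ ended an alanine codon at coding base 2478, 15 bases before a junction, and had a fraction of 15.7%. GAPC1 (chromosome 4, 38912654 to 38916331) encodes the cytosolic glyceraldehyde-3-phosphate dehydrogenase of glycolysis. It had 122 gapped reads of 2118, or 5.76% (4.85 to 6.83%), and a fraction of 17.7%, again in an alanine codon. The intervals of pdk1 and GAPC1 overlap.

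Of the genes that handle peroxide, thiols and foreign compounds, CAT3, a catalase, had the most gapped reads. Gaps were found in 150 of 2374 reads there, or 6.32% (5.41 to 7.37%), with a fraction of 29.9% in a leucine codon. GST3, a glutathione S-transferase, had 94 of 1621, or 5.80% (4.76 to 7.04%), with a fraction of 17.8%. trxh2, an h-type thioredoxin, had 78 of 1586, or 4.92% (3.96 to 6.10%), with a fraction of 15.1%. The 3 gap ratios have overlapping intervals, and CAT3 is the only one of the 3 with a GCΨCGG window, the class with the larger step from gap ratio to fraction.

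In the cytoskeleton, tua4 and tub5 encode an α-tubulin and a β-tubulin, the partners of the microtubule, and Villin-2 a protein that bundles actin. tua4 had 112 of 2583 reads gapped, or 4.34% (3.62 to 5.19%), tub5 had 60 of 1221, or 4.91% (3.84 to 6.27%), and Villin-2 had 21 of 215, or 9.77% (6.48 to 14.5%). Both tubulin intervals overlap, and Villin-2 lay above them at a depth lower than theirs. Tubulins form gene families with similar sequence, so the depth assigned to each copy is uncertain.

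The remaining named genes covered the widest range. rps4, for a ribosomal protein of the small subunit, had 51 of 1077 reads gapped, or 4.74% (3.62 to 6.17%). MUB6, which the table also calls ubiquitin, the small protein that marks others for degradation, had 88 of 1481, or 5.94% (4.85 to 7.26%), and copies of ubiquitin are again hard to tell apart. sam2 had 115 of 2338, or 4.92% (4.11 to 5.87%). cdpk14, a calcium-dependent protein kinase, had 21 of 99, or 21.2% (14.3 to 30.3%), and PHD35 had 15 of 116, or 12.9% (8.00 to 20.2%). The last pair overlaps each other and lies above the other 3, at depths below theirs.

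**Figure D5:**
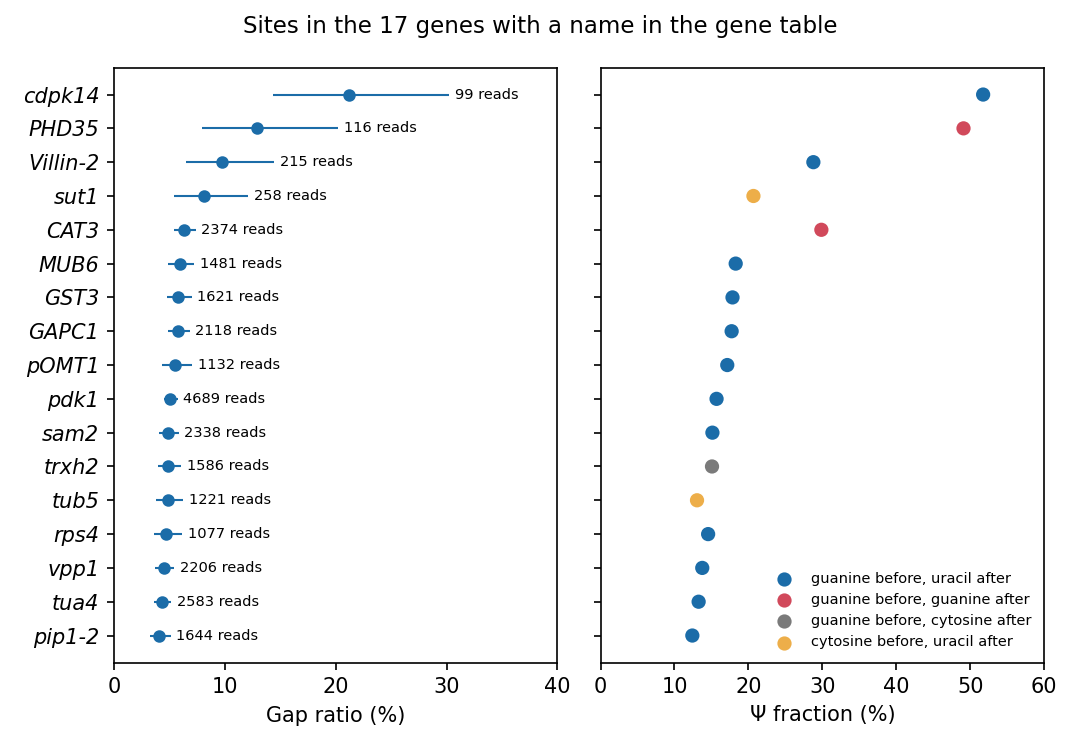
Gap ratio with its Wilson 95% interval (left, per cent, depth in reads beside each point) and Ψ fraction (right, per cent, coloured by the bases outside the C residues) at the sites of the 17 named genes, in the order of the gap ratio. The 13 genes with over 1000 reads lie between 4.08% and 6.32%, and the 4 with fewer than 300 reads between 8.14% and 21.2%.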

How the data were processed

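Poly(A)-enriched RNA of maize B73 shoots was sequenced in 2 input and 2 bisulfite-treated BID-seq libraries. The authors ran a published BID-seq pipeline on Zm-B73-REFERENCE-NAM-5.0 and deposited a site list. Its depth is a deposited read count summed over the replicates. The gap ratio is a deposited fraction of gapped reads, which the authors calibrated to a stoichiometry, and a deposited pass score of 1 or 2 is undefined. Whether depth includes input reads is not given in the sources used here.

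Gapped reads were taken as depth times gap ratio, which lay within 0.00244 of a whole number. Wilson intervals at the 95% level were computed with scipy 1.17.1 and tested on simulated data. The sites, lists and comparisons were chosen with earlier results of these data known, so no test between groups was run. Named sites were the 6 highest fractions with at least 100 reads, the 4 lowest, the 5 deepest, the 4 closest to a junction, those with the fewest and most gapped reads, and those whose codon went against the window. Other genes were named after their values were seen: those of windows shown as examples, start or junction neighbours and shared windows. So were 17 genes picked by a name in RefSeq, where 89 of 90 genes were found. Planned gene lists and shoot markers rest on gene descriptions, which were not used here, so the tissue label was not checked. In the expression table, 2 TPM columns that the authors deposited were left out because each name fits an input and a treated library. Alternatives were minimum depth, pass score, genes with several sites, pooling, means, and codon or window filters.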

Additional observations from a re-analysis of the deposited data

How the results depend on the processing

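Of 52 alternative values for 11 results, 3 fell outside the interval of the value reported. The differences from the other coding sites have no reported interval, so their alternatives are given as ranges only. The median gap ratio of the CΨC coding sites, 6.91%, was 5.74% with all reads pooled, where deep sites weigh more. The share of sites with a fraction under 20%, 37.8%, came to 26.1% when only the 23 sites scored 2 were kept, and the cause was not tested. The share with a fraction over 50%, 4.44%, was 0 at the 72 sites with at least 200 reads. The median fraction ranged from 20.5% to 26.3%, and its difference from the other coding sites from −4.95 to −1.09 percentage points. The difference in gap ratio ranged from −1.35 to −0.12 percentage points. G at base 9 ranged from 77.3% to 80.0% and GCΨCUG from 43.1% to 45.0%, with alternatives chosen after seeing the data. No paired analysis was possible because the list holds sums over replicates, and leaving out a replicate was not run for the same reason. Alternatives for shoot expression were not run, since those columns were left out. Fewer than 100 reads were listed at 9 sites, where the interval reached up to 17.98 percentage points below and 23.4 above the gap ratio.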
